A study of Mus musculus with 12 samples.

Results

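The clustered protocadherin genes lie head to tail in 3 groups, alpha, beta and gamma, on mouse chromosome 18, and their RNA was measured in 12 rhabdoid tumors. They were taken as every gene row whose symbol begins with Pcdha, Pcdhac, Pcdhb, Pcdhga, Pcdhgb or Pcdhgc followed by a number and nothing else. This gave 58 of the 24060 gene rows: 12 alternate alpha genes, 2 C-type alpha genes, 22 beta genes, 12 gamma A genes, 7 gamma B genes and 3 C-type gamma genes. In RefSeq on GRCm38 (mm10), all on the forward strand, the alpha genes span positions 36930285 to 37188897, the beta genes 37264998 to 37521419 and the gamma genes 37661775 to 37841873.

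Clustered protocadherins are cell-surface adhesion proteins of the cadherin superfamily that bind copies of themselves on neighboring cells, and they are best known for giving single neurons an identity by which their branches avoid each other. Each alpha or gamma gene has its own promoter and a large variable first exon, which is spliced to constant exons shared by the whole group, whereas a beta gene is a single exon. The alternate genes are chosen at random from cell to cell through CTCF, cohesin, a distant enhancer and promoter methylation, while the C-type genes are expressed more uniformly in neurons.

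All tumors came from 1 genotype, P0-CreC;Smarcb1flox/flox, whose Cre deletes Smarcb1, a core subunit of the SWI/SNF chromatin remodeling complex, from early neural crest on. Labels gave 4 tumors a retro-orbital location, 3 the cheek, 3 the meninges, 1 the vestibular nerve and 1 the trigeminal nerve. Mice, age and sex of the single tumors were not given in the labels used here. Every tumor carried the deletion and no normal tissue was analysed here, so the comparisons are between locations of the same kind of tumor, and the single nerve tumors entered no test. The study profiled them to judge how closely they resemble the human disease, and the comparison of locations here follows the labels. The paper placed the tumors in 3 molecular subgroups and reported that these did not follow location. Those subgroups are not used here.

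Values were RPKM, the fragments of a gene scaled to the length of its transcript and to the fragment total of the tumor, and the fragment totals recovered from them ran from 13206168 in cheek tumor 3 to 57128422 in retro-orbital tumor 3. Smarcb1 stood between 1.70 and 6.31 RPKM in the 12 tumors. Summed over 12 neuron markers, RPKM was 31.2 to 185 in the retro-orbital, 21.7 to 560 in the cheek and 52.5 to 99.5 in the meninges tumors. Of these markers Slc17a6 was listed at 0 in 3 tumors. Summed astrocyte markers ran from 70.5 to 430, from 184 to 240 and from 236 to 655 in the same order. In bulk tumor RNA fewer expressing cells and less RNA per cell cannot be told apart.

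Alpha and gamma RPKM were deposited on the whole transcript, including the shared exons, although fragments of the shared exons were hardly credited to single genes. Pcdha1, for example, had 0 fragments in 3 tumors whose other alpha genes were detected. In those tumors 3 fragments, the limit that a count of 0 allows, are worth at most 0.0433 RPKM. Likewise Pcdhga2 had 19 fragments in cheek tumor 3, where the gamma genes together had 4674. Where genes of different clusters are set side by side, the RPKM was therefore rescaled to the length of the gene's own first exon, which raised alpha values 2.12- to 2.22-fold and gamma values 1.72- to 1.90-fold and left beta values as they were. This level is called RPKM per own exon here.

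Per own exon and by the median of the tumors, the gamma genes carried most of the clustered protocadherin RNA and the alpha genes least. Of the summed RPKM per own exon of all 58 genes, the gamma genes held 47.3 to 74.6% over the 12 tumors (median 63.3%), the beta genes 24.6 to 50.3% (median 33.6%) and the alpha genes 0.746 to 7.11% (median 2.99%). The sum over beta genes was below the sum over gamma genes in 11 of the 12 tumors, and only cheek tumor 2 went the other way, at a ratio of 1.05. On the deposited scale the same ratio lay above 1 in 6 tumors, so the order of the beta and gamma clusters depends on the length used. Of the 58 genes, 35 had a median of 1 RPKM or more as deposited, namely 15 of 22 beta, 20 of 22 gamma and 0 of 14 alpha genes. Per own exon there were 39, with all 22 gamma genes and 2 alpha genes, Pcdha5 and Pcdha8, among them.

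**Figure D1:**
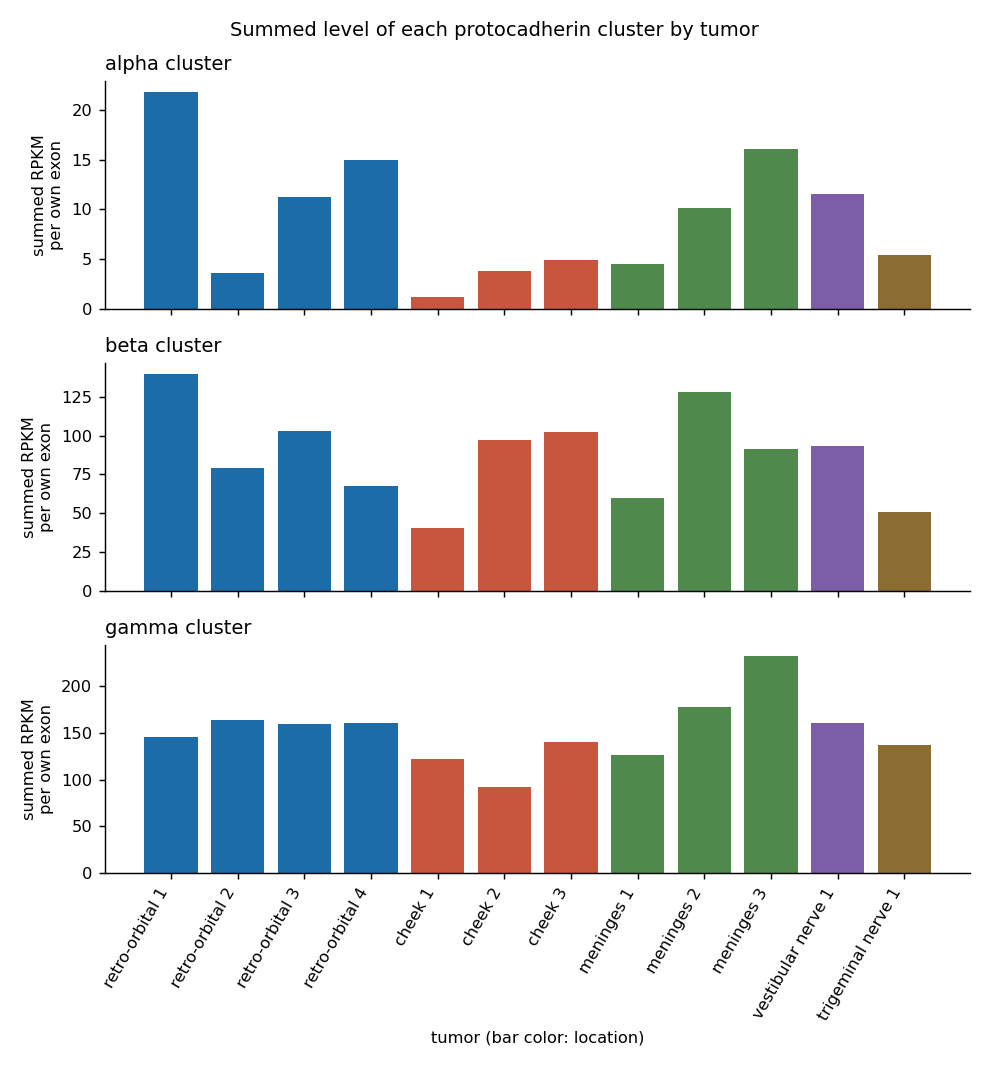
Summed RPKM per own exon of the alpha, beta and gamma genes (y axes, from 0) in each of the 12 tumors (x axis), with bar colors for location. The alpha sums run from 1.22 to 21.8, the beta sums from 40.3 to 140 and the gamma sums from 91.9 to 233, and cheek tumor 1 is lowest in the alpha and beta panels.

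The alpha genes were the lowest of the clusters, with 83 to 1534 fragments over all 14 genes in a tumor. Their summed deposited RPKM was 9.96, 1.62, 5.11 and 6.82 in retro-orbital tumors 1 to 4, 0.557, 1.73 and 2.22 in cheek tumors 1 to 3, 2.07, 4.62 and 7.35 in meninges tumors 1 to 3, 5.31 in the vestibular nerve tumor and 2.45 in the trigeminal nerve tumor. The means were 5.87 ± 3.48 (SD, n = 4) for retro-orbital, 1.5 ± 0.855 (SD, n = 3) for cheek and 4.68 ± 2.64 (SD, n = 3) for meninges. The cheek and meninges sums overlapped by 1 tumor each, and retro-orbital tumor 2 lay within the cheek range. No test was run on these sums.

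Among the alternate alpha genes Pcdha5, Pcdha8 and Pcdha11 had the highest medians, at 0.466, 0.456 and 0.327 RPKM. Pcdha8 read 1.19, 0.292, 0.708 and 1.32 RPKM in the retro-orbital, 0.0942, 0.0702 and 0.130 in the cheek and 0.333, 0.928 and 0.579 in the meninges tumors. The 3 cheek tumors were thus the lowest of the 3 locations, and the same held for Pcdha3, Pcdha10 and Pcdha12. Of the genes in the tests below, 3.4% had every cheek tumor below both other locations. No alpha gene is in that set, so the share is not a like background for these genes. The alpha values rest on few fragments: Pcdha3 had 3, 5 and 3 in the cheek tumors against 7 in retro-orbital tumor 2, at 0.0434 RPKM for the highest cheek and 0.0455 RPKM for the retro-orbital tumor. Pcdha4 was lowest, with a median of 0.0187 RPKM. Its row shares its exons with a second row of the same locus, listed at 0 in all tumors, so its low value may not be comparable with its neighbors. The C-type genes Pcdhac1 and Pcdhac2, the last of the cluster, stood within the range of the alternate genes, with medians of 0.156 and 0.225 RPKM, above 4 and 6 of the 12. Pcdhac2 was the top alpha gene in meninges tumor 3, at 1.01 RPKM, and in the vestibular and trigeminal nerve tumors, at 0.721 and 0.314 RPKM. Retro-orbital tumor 1 was among the 3 highest tumors for 13 of the 14 alpha genes and meninges tumor 3 for 9, whereas cheek tumor 1 was the lowest for 10. No alpha gene reached 1 RPKM in 3 of the 10 tumors compared, so none entered the main tests below. Without that filter all 58 genes were tested, and limma called 0 of them in each comparison.

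The beta genes rose along the cluster. The 11 genes at its 5′ end, Pcdhb1 to Pcdhb11, had medians of 0.0294 to 4.14 RPKM, and the 11 at its 3′ end, Pcdhb12 to Pcdhb22, medians of 1.32 to 10.4 RPKM. The 3′ genes together exceeded the 5′ genes in each of the 12 tumors, by 1.54-fold in retro-orbital tumor 3 up to 12.3-fold in cheek tumor 1 (median 4.58-fold). Within a tumor, the Spearman correlation of level with position across the 22 genes was 0.47 in retro-orbital tumor 1 to 0.95 in cheek tumor 1. Genes of a cluster are not independent replicates, and the deposited counts hold uniquely mapped reads only, which can lower beta genes with near-identical stretches. In the alpha cluster the same correlation was weaker, at -0.07 to 0.60 (median 0.38) and above 0 in 11 of 12 tumors, and in the gamma cluster it was -0.44 to 0.18 (median -0.19) and above 0 in 3 of 12.

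**Figure D2:**
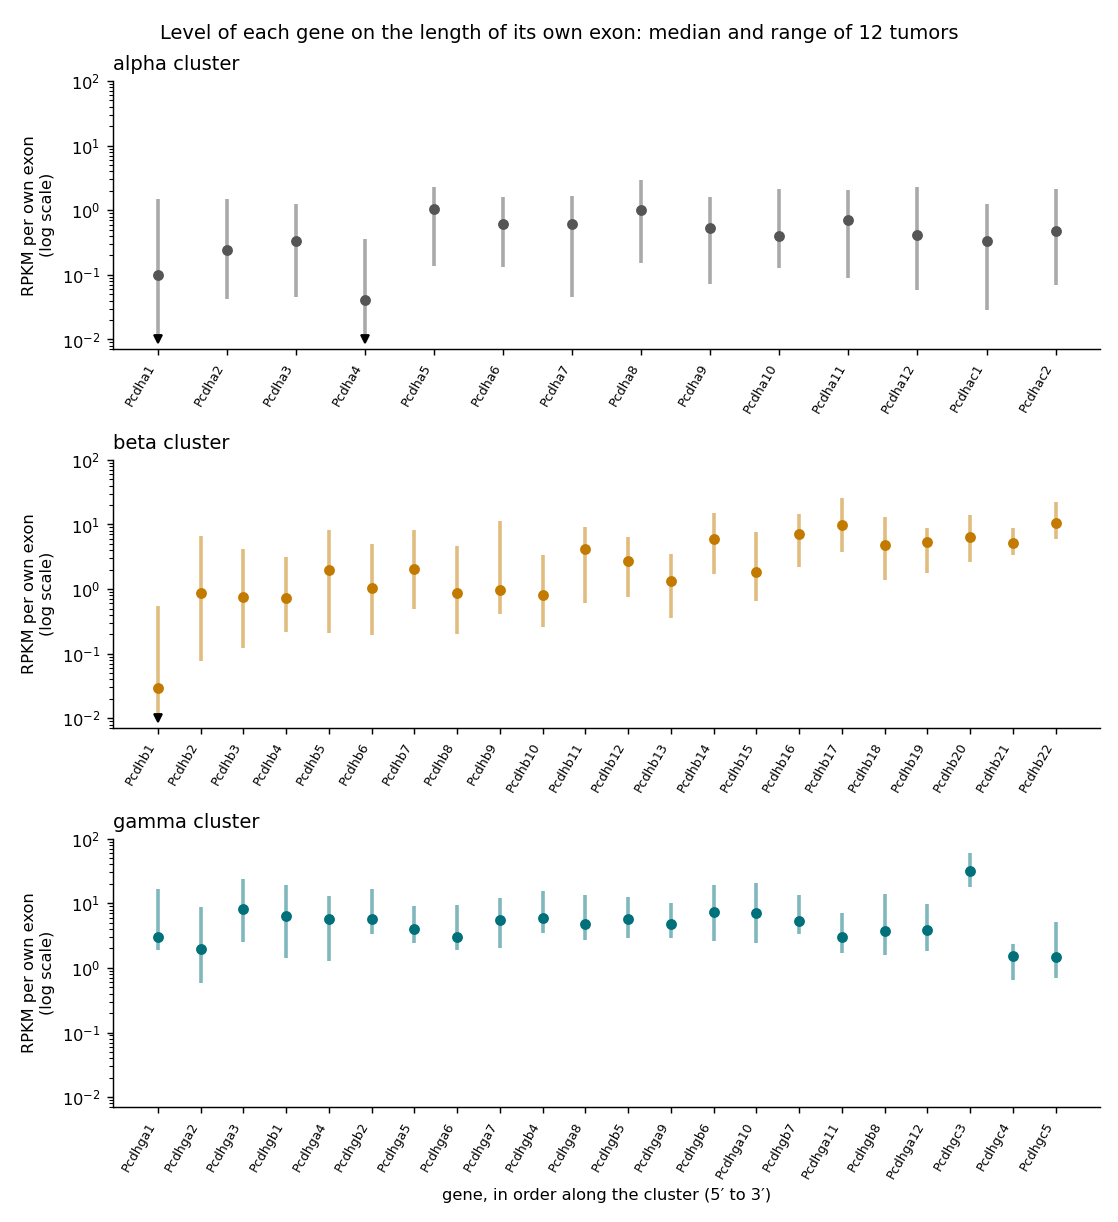
RPKM per own exon (y axes, log scale) of each gene in its order along the alpha, beta and gamma clusters (x axes), as the median (points) and range (lines) of the 12 tumors, with a black triangle where the lowest tumor is at 0 or below the axis. Medians of the beta genes climb from 0.0294 at Pcdhb1 to 10.4 at Pcdhb22, and Pcdhgc3 stands above all other genes at 31.9.

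The 5′ beta genes also varied more between tumors than the 3′ genes. The highest tumor exceeded the lowest 12.8- to 87.6-fold for the 10 genes Pcdhb2 to Pcdhb11 (median 24.2-fold) and 2.69- to 12.0-fold for the 11 genes Pcdhb12 to Pcdhb22 (median 6.83-fold). Low genes have few fragments and a wider counting error, and Pcdhb2 ran from 6 to 530 fragments. Pcdhb2 read 6.68, 0.208, 3.34 and 0.568 RPKM in the retro-orbital, 0.0763, 0.972 and 1.26 in the cheek and 0.301, 3.51 and 1.62 in the meninges tumors. Its high tumors were thus split between the retro-orbital and the meninges group. Cheek tumor 1 was the lowest of all tumors for 17 of the 22 beta genes, and meninges tumor 2 was among the 3 highest for 15, retro-orbital tumor 1 for 13 and retro-orbital tumor 3 for 10.

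The gene at the 3′ end, Pcdhb22, had the highest beta median and did not follow the other beta genes. It read 5.97, 17.8, 7.29 and 11.5 RPKM in the retro-orbital, 18.1, 6.33 and 8.05 in the cheek, 11.4, 6.82 and 22.3 in the meninges, 14.5 in the vestibular nerve and 9.39 in the trigeminal nerve tumor. In cheek tumor 1, where most beta genes were at their lowest, it alone made up 44.8% of the beta RPKM. Pcdhb17 was the next, with 25.7, 8.47, 9.64 and 6.62 RPKM in the retro-orbital, 3.77, 18.5 and 20.4 in the cheek and 9.94, 15.9 and 9.74 in the meninges tumors. In every tumor the top beta gene was Pcdhb22 (7 tumors) or Pcdhb17 (5 tumors). Pcdhb16 followed with a median of 7.0 RPKM. Pcdhb21 was the steadiest beta gene, at 3.33 to 8.94 RPKM. Pcdhb1 was the lowest, with 0 fragments in 4 tumors, and stood at 0.549 RPKM in retro-orbital tumor 3 and 0.501 RPKM in the vestibular nerve tumor against at most 0.0686 RPKM in the others. The summed beta RPKM averaged 97.3 ± 32.0 (SD, n = 4) in retro-orbital, 79.8 ± 34.3 (SD, n = 3) in cheek and 93.3 ± 34.2 (SD, n = 3) in meninges tumors, and the 3 ranges overlapped.

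Pcdhgc3, the first of the C-type gamma genes, was the highest of the 58 genes per own exon, with a median of 31.9. As deposited it read 12.6, 21.9, 24.8 and 21.2 RPKM in the retro-orbital, 9.97, 16.2 and 23.2 in the cheek, 15.7, 32.4 and 14.9 in the meninges, 18.7 in the vestibular nerve and 15.6 in the trigeminal nerve tumor. It was the top gamma gene in all tumors but retro-orbital tumor 1, where Pcdhga3 stood at 12.9 RPKM, and its highest tumor exceeded its lowest 3.25-fold. The other C-type genes were among the lowest of the cluster. Pcdhgc4, which is known to be needed for neuronal survival, had a median of 0.897 RPKM and Pcdhgc5 one of 0.800 RPKM.

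Each gamma gene was detected in every tumor, with at least 19 fragments. At 1 RPKM per own exon or more in all 12 tumors were 19 of 22 gamma, 8 of 22 beta and 0 of 14 alpha genes, and 14 of the gamma genes on the deposited scale. The highest gamma A medians were those of Pcdhga3 (4.51 RPKM), Pcdhga10 (3.74 RPKM) and Pcdhga4 (3.02 RPKM), and Pcdhga2 was lowest at 1.06 RPKM. Among the gamma B genes Pcdhgb6 (4.01 RPKM), Pcdhgb1 (3.34 RPKM) and Pcdhgb2 (3.14 RPKM) led, and Pcdhgb8, which RefSeq lists as a transcribed pseudogene, was lowest at 2.03 RPKM.

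Single tumors were high for different alternate gamma genes. Pcdhga10 stood at 10.8 RPKM in meninges tumor 2 and 8.0 RPKM in the vestibular nerve tumor, against 1.29 to 7.76 RPKM elsewhere. Pcdhgb8 stood at 7.42 RPKM in meninges tumor 2 against 0.850 to 3.14 RPKM in the rest, and Pcdhgb4 at 8.31 RPKM in the trigeminal nerve tumor against 1.85 to 5.44 RPKM in the rest. Meninges tumor 3 was broadly high: it was among the 3 highest tumors for 18 of the 22 gamma genes and the highest for 10, and cheek tumor 2 was the lowest for 13. Astrocyte markers were also highest in meninges tumor 3, at a sum of 655 RPKM, and neuron markers in cheek tumor 2, at a sum of 560 RPKM. Cheek tumor 2 also had the highest sums of muscle markers (538 RPKM) and of meningeal and fibroblast markers (2935 RPKM). The part of these markers in the gamma levels was not tested. Summed gamma RPKM averaged 85.6 ± 4.65 (SD, n = 4) in retro-orbital, 64.1 ± 13.3 (SD, n = 3) in cheek and 97.0 ± 28.7 (SD, n = 3) in meninges tumors. All 4 retro-orbital sums exceeded the 3 cheek sums, and the meninges sums overlapped both.

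**Figure D3:**
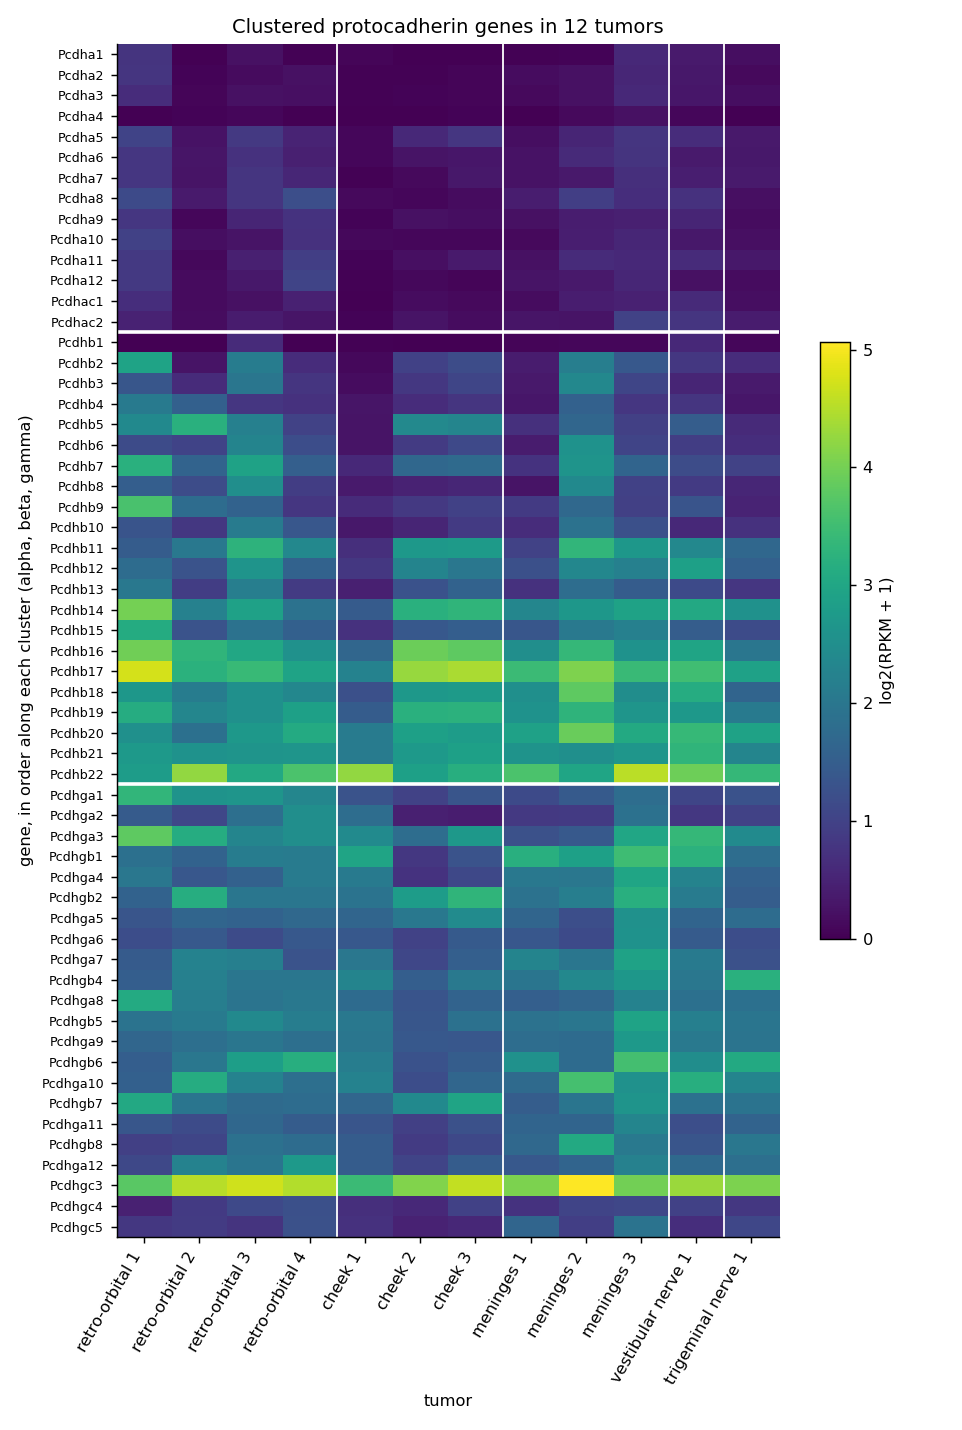
Log2(RPKM + 1) (color) of the 58 genes (rows, in order along the alpha, beta and gamma clusters) in the 12 tumors (columns, by location), with white lines between clusters and locations. The alpha rows are dark in every tumor, the beta rows brighten downward, Pcdhgc3 is bright in every tumor, and the columns of cheek tumors 2 and 3 look alike.

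The profile over the clusters was nearly shared by 1 pair of tumors and differed widely between the others, those of the same location included. Over the 43 genes that entered the tests, Spearman's rho between cheek tumors 2 and 3 was 0.98, the highest of the 66 tumor pairs, and that of the other 65 pairs ran from 0.22 to 0.88 (median 0.60). These 2 tumors share the first part of their identifier, and whether they came from 1 animal was not stated. The chi-square of their fragments over the 43 genes was 8.55 per degree of freedom, against 26.5 to 219 in the other pairs. They thus differed by more than counting error, the only error it covers. It cannot show whether they came from separate tumors or animals. Both were kept in the main fit, and a fit with 1 tumor for each shared identifier is given below. Of the gamma genes, 20 of 22 were higher in cheek tumor 3, by a median of 0.43 on the log2(RPKM + 1) scale, while beta genes differed by a median of 0.13. Over all genes at 1 RPKM or more in 3 tumors they were also the most alike pair, at a rho of 0.98 against at most 0.91.

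Other pairs of shared identifier were less alike. Cheek tumor 1 and meninges tumor 1 had a rho of 0.83, and retro-orbital tumor 3 and the trigeminal nerve tumor one of 0.48. The 12 pairs of the same location had a median rho of 0.53, cheek tumors 2 and 3 included, and the 54 other pairs one of 0.62. Cheek tumor 1 was nearer to meninges tumor 3 (0.88) than to cheek tumor 2 (0.41) or 3 (0.49). These correlations are descriptions over genes that share a locus and have no p.

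**Figure D4:**
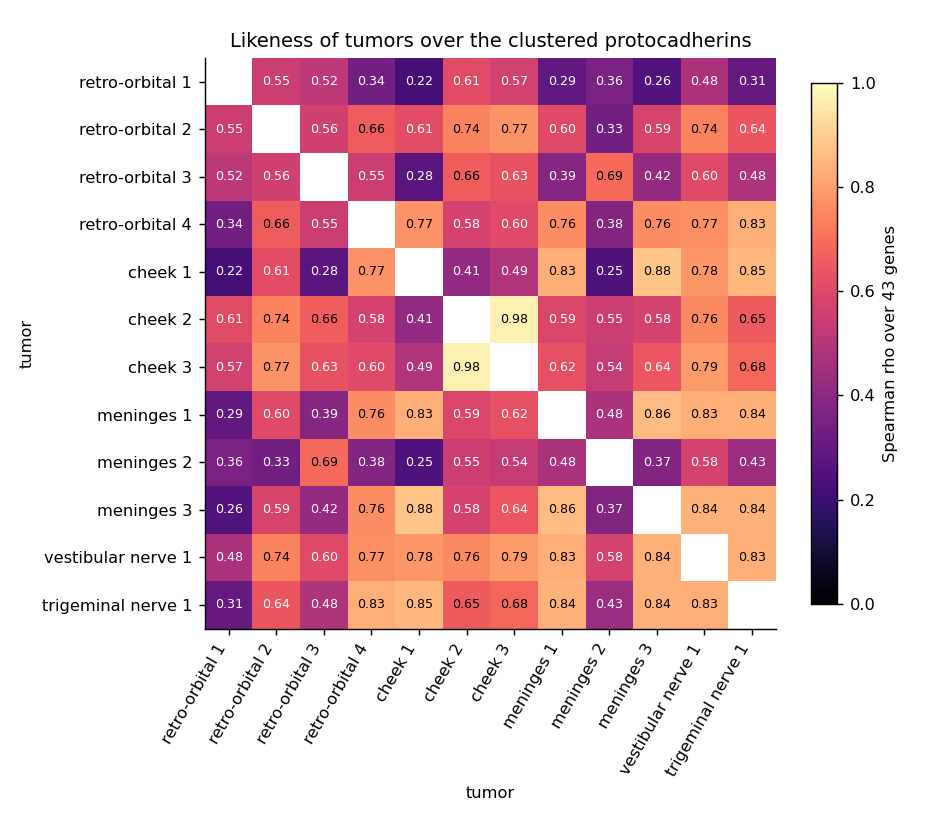
Spearman's rho (color and printed value) over the 43 tested clustered protocadherin genes between each pair of the 12 tumors (both axes). Cheek tumors 2 and 3 are at 0.98, while values of the other same-location pairs are mixed with those of pairs from different locations.

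Locations were compared with limma on log2(RPKM + 1) over all 14745 genes at 1 RPKM or more in at least 3 of the 10 tumors of the 3 replicated locations, with Benjamini-Hochberg adjustment over all of them. Of the 58 genes, 43 passed this filter: 21 of 22 beta, all 22 gamma and none of the alpha genes. None of the 43 passed an adjusted p of 0.05 in any comparison. The share of all genes called was itself low, at 0.0407% for any difference between locations, 0.0271% for cheek minus retro-orbital, 0.0203% for meninges minus retro-orbital and 0.0475% for meninges minus cheek. At an unadjusted limma p under 0.05 there were 3, 1, 2 and 5 of the 43 genes in these comparisons, or 6.98, 2.33, 4.65 and 11.6%, against 14.3, 12.0, 9.14 and 17.0% of all genes. The share of the 43 genes was thus below that of all genes in each of the 4 comparisons.

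The median over the 43 genes was -0.31 for cheek minus retro-orbital, against -0.02 over all genes. Of the 43 genes, 36 were below 0 and 7 above, where 48.6% of all genes were above 0. For meninges minus cheek the median was 0.36, against 0.16 over all genes, with 35 above 0, against 61.9% of all genes. For meninges minus retro-orbital it was 0.05, against 0.13, with 24 above 0, against 63.8% of all genes. Cheek had the lowest of the 3 location means for 13 of 14 alpha, 14 of 22 beta and 16 of 22 gamma genes. Of all genes tested, a set without the alpha genes and Pcdhb1, the share was 44.4%. Without cheek tumor 1, an alternative added after seeing the data, these counts were 13, 11 and 18, against 55.5% of all genes, and the summed beta RPKM of the cheek averaged 99.6, above the 97.3 of the retro-orbital and the 93.3 of the meninges tumors. The comparisons share tumors, so these counts are not independent of each other. Summed meningeal and fibroblast markers, 8 genes with 1 called by limma for cheek minus retro-orbital, were higher in each cheek tumor (2085 to 2935 RPKM) than in the retro-orbital (674 to 1381 RPKM) and meninges tumors (882 to 1649 RPKM), and their part in the cheek values was not tested.

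Pcdhga1, the first gene of the gamma cluster, stood apart most clearly by location. It read 9.02, 5.09, 5.24 and 4.04 RPKM in the retro-orbital tumors, 1.45, 1.01 and 1.54 RPKM in the cheek, 1.19, 1.70 and 2.49 RPKM in the meninges, 1.08 RPKM in the vestibular nerve and 1.44 RPKM in the trigeminal nerve tumor. All 4 retro-orbital tumors lay above the 8 others, with no overlap. On the log2(RPKM + 1) scale cheek minus retro-orbital was -1.51 ± 0.30 (SE; 95% interval -2.19 to -0.84; limma adjusted p = 0.175) and meninges minus retro-orbital -1.27 ± 0.30 (SE; limma adjusted p = 0.340). Neither difference passed the adjustment. With 1 tumor for each shared identifier they were -1.58 and -1.11, at limma adjusted p = 0.816 and 0.977. Only 0.631% of all genes had every retro-orbital tumor above both other locations, and Pcdhga1 was the 1 such gene of the 43. Counting any location, above or below both others, 2 of the 43 genes were without overlap, against 11.1% of all genes. The next gene of the cluster, Pcdhga2, read 1.74, 1.12, 2.59 and 4.69 RPKM in the retro-orbital and 2.52, 0.365 and 0.317 RPKM in the cheek tumors, which overlapped.

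Pcdhgc5, the last gene of the cluster, was lowest in the cheek. It read 0.652, 0.391 and 0.483 RPKM there, 0.761, 0.838, 0.684 and 1.38 RPKM in the retro-orbital and 2.15, 0.913 and 2.82 RPKM in the meninges tumors. The cheek tumors did not overlap the others, although the highest of them was close to the lowest retro-orbital tumor. Meninges minus cheek was 0.92 ± 0.31 (SE, with a limma adjusted p of 0.217) on that scale. Of all genes 3.4% had every cheek tumor below both other locations, and Pcdhgc5 was the 1 such gene of the 43. It passed the filter of 1 RPKM only through retro-orbital tumor 4 and meninges tumors 1 and 3, with every cheek tumor below it. The filter thus favored this order, so neither the share nor the difference supports a low level in the cheek. None of the 43 genes had every cheek tumor above (2.56% of all genes), every meninges tumor above (3.13%), every meninges tumor below (1.03%) or every retro-orbital tumor below (0.8%) both other locations. The single vestibular nerve tumor, at 0.591 RPKM, lay within the cheek range.

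Pcdhgb1 had the lowest adjusted p of the 43 genes for meninges minus cheek. It read 8.14, 6.4 and 10.3 RPKM in the meninges, 6.80, 0.763 and 1.45 RPKM in the cheek and 2.68, 2.03, 3.39 and 3.29 RPKM in the retro-orbital tumors. The difference was 1.5 ± 0.49 on the log2(RPKM + 1) scale (SE; limma adjusted p = 0.209), and cheek tumor 1 lay within the meninges range. Without cheek tumor 1, limma called Pcdhgb1 in this comparison and for any difference between locations, as 1 of 527 and 1 of 198 genes called, against 7 and 6 genes with all tumors. The cheek group then held only the 2 tumors that share an identifier and a rho of 0.98. With 1 tumor for each shared identifier, limma called none of the members and none of all genes in any of the 4 comparisons.

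**Figure D5:**
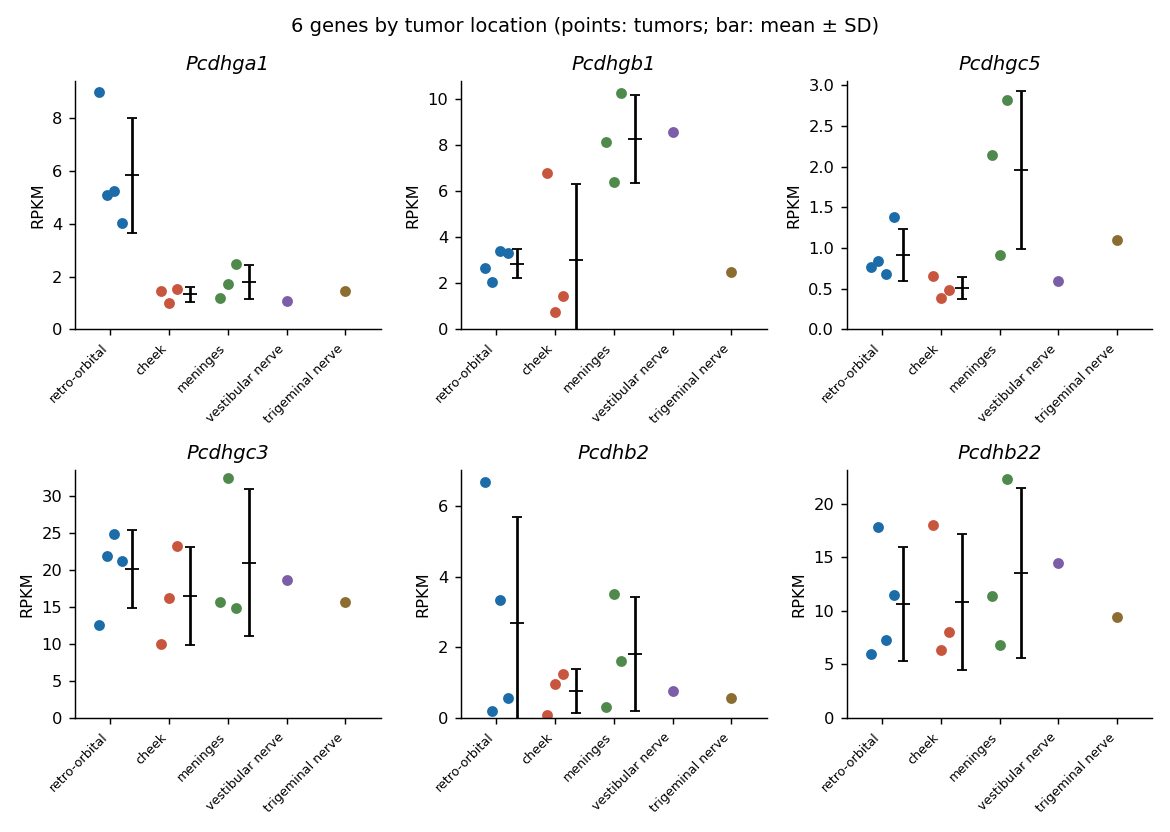
RPKM (y axes, from 0) of Pcdhga1, Pcdhgb1, Pcdhgc5, Pcdhgc3, Pcdhb2 and Pcdhb22 by location (x axes), with 1 point per tumor and the mean ± SD beside locations with replicates (lower bars end at the axis). Retro-orbital tumors stand above all others for Pcdhga1, at 4.04 to 9.02 RPKM against 1.01 to 2.49 RPKM, while the locations overlap for Pcdhgc3, Pcdhb2 and Pcdhb22.

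Most genes that act on the clusters were measured well, although Dnmt3b stood at only 0.609 and 0.892 RPKM in cheek tumors 2 and 3. All 19 genes listed for cluster architecture and silencing, among them cohesin subunits, Smchd1, Setdb1 and the DNA methyltransferases, had a median of 1 RPKM or more. Limma called 0 of the 19 in each comparison. At an unadjusted limma p under 0.05 there were 1 for any difference and 2 for cheek minus retro-orbital. There were 2 for meninges minus retro-orbital and 0 for meninges minus cheek. Over all genes the shares were 14.3, 12.0, 9.14 and 17.0% in this order. Ctcf, whose protein binds the variable promoters and the enhancer, stood at 30.6 to 54.5 RPKM, with means of 34.2 ± 4.93 (SD, n = 4) in retro-orbital, 38.8 ± 2.72 (SD, n = 3) in cheek and 44.0 ± 4.44 (SD, n = 3) in meninges tumors. The cohesin subunit gene Rad21 ran from 50.4 RPKM to 133 RPKM, its maximum being cheek tumor 1. Trim28, a corepressor that recruits Setdb1, ran from 47.2 to 145 RPKM.

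Related families were compared as lists. Of the 11 non-clustered protocadherins, which are single genes elsewhere in the genome, 10 were tested and limma called 0 in each comparison. At an unadjusted limma p under 0.05 there were 2, 3, 1 and 3 in the same order. Over all genes the shares were 14.3, 12.0, 9.14 and 17.0%, which also apply to the lists that follow. Pcdh1 had the highest median at 11.4 RPKM, with 16.2 ± 6.45 (SD, n = 4) in retro-orbital, 5.35 ± 3.73 (SD, n = 3) in cheek and 13.3 ± 3.58 (SD, n = 3) in meninges tumors, and Pcdh7 reached 66.2 RPKM in cheek tumor 3 from 2.36 RPKM in retro-orbital tumor 4. Of 18 genes for signaling partners of the protocadherin tails, 17 were tested and 0 called by limma, with 3, 2, 1 and 4 at an unadjusted p under 0.05. The WAVE regulators Rac1, at 172 to 218 RPKM, and Nckap1, at 41.8 to 85.2 RPKM, were the highest. Of 11 classical cadherins, 9 were tested and 0 called by limma, with 1, 0, 2 and 1 at an unadjusted p under 0.05. Cdh11, a mesenchymal cadherin, ran from 11.6 RPKM to 255 RPKM and Cdh1, the epithelial cadherin, from 0.535 RPKM to 84.9 RPKM.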

How the data were processed

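RNA of 12 frozen mouse tumors was extracted with the RiboPure kit and made into stranded, ribosomal RNA-depleted libraries (TruSeq Stranded, RiboZero Gold). The files hold RPKM, computed by the authors and deposited as 1 table per tumor. Alignment was done by the authors with STAR on mm10, multi-mapping reads were dropped, and HTSeq assigned fragments to genes of RefSeq. The submitters' notes also list bcl2fastq 2.17 and limma. The strand setting and overlap mode of the counting are not given in the sources used here. No gene is named from the 27 rows whose symbol was turned into a date.

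An RPKM step of 1 fragment gave each tumor's fragment total and each gene's transcript length. With them all 58 genes gave whole fragments in every tumor, within 0.001 of a fragment. Own-exon lengths are the recovered length minus the shared exons of GENCODE M21 on the same assembly. Locations were tested with limma 3.58.1 in R 4.3.3 (trended, robust) on log2(RPKM + 1), which understates changes of low genes, over genes at 1 RPKM or more in at least 3 of 10 tumors. The test was tried on simulated data. Alternatives changed the pseudocount, the filter, the normalization, the prior variance and the tumors. An exact permutation test was planned for single genes quoted outside the fit but was not run. The alpha genes and Pcdhb1 therefore have no test of location in the main fit. The alternative without a filter tested all 58 genes, and limma called 0 of them in each comparison.

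Named genes were the 3 highest and the lowest median of each subcluster, genes without overlap between locations, Ctcf, the 2 highest of each other list and Smarcb1. Pcdhb2, Pcdhb21, Pcdhgb4, Pcdha3, Pcdha10, Pcdha12 and Dnmt3b were added after their values were seen. The genes and lists were chosen with earlier results of these data known. Tumor identifiers share a first part in cheek 2 and 3, in cheek 1 and meninges 1, and in retro-orbital 3 and the trigeminal nerve tumor. Whether such tumors grew in 1 animal was not given. If cheek 2 and 3 did, the fit may underestimate the spread between animals, and its p-values may be too low. Replicate numbers are in accession order and pair nothing. Sequences of these loci are not reported here.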

Additional observations from a re-analysis of the deposited data

Results flagged for a closer look

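The 4 retro-orbital tumors were searched for a single tumor far from the others in each of the 58 genes, and 3 genes had one. Chance flags about 1 gene in 20, so 3 of 58 is about the number that chance alone would give. Pcdhb1 in retro-orbital tumor 3 stood at 0.549 RPKM while the other 3 tumors were at 0, so its gap took up the whole range (1.0). Pcdhb6 in retro-orbital tumor 3 stood at 3.86 RPKM against at most 1.29 RPKM, a gap of 0.862 of the range. Pcdhgb7 in retro-orbital tumor 1 stood at 7.27 RPKM against at most 2.90 RPKM, a gap of 0.843 of the range. The other locations held too few tumors for such a search.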

How the results depend on the processing

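No clustered protocadherin gene was called by limma under any alternative with all 10 tumors or with 1 tumor for each shared identifier, in any of the 4 comparisons, also where a looser filter tested 56 or 58 of them. The number of all genes called moved more. For any difference between locations it was 6, and 15 with a filter at 0.1 RPKM, 10 without a filter, 19 with a prior variance neither trended nor robust and 0 with 1 tumor for each shared identifier. For cheek minus retro-orbital it was 4, and 2 without a filter and 0 with 1 tumor for each shared identifier. For meninges minus retro-orbital it was 3, and 9, 7, 6 and 0 under the filter at 0.1 RPKM, no filter, the prior variance neither trended nor robust and 1 tumor for each shared identifier. For meninges minus cheek it was 7, and 2 with a pseudocount of 0.1, 17 with the filter at 0.1 RPKM, 18 without a filter, 13 with quantile normalization, 22 with the prior variance neither trended nor robust and 0 with 1 tumor for each shared identifier. The cause of these shifts was not tested. Leaving out each tumor in turn, all genes called ran from 0 to 198, 0 to 147, 0 to 41 and 0 to 527 in these comparisons, the highest without cheek tumor 1 except 41 without retro-orbital tumor 3, and the clustered protocadherins called from 0 to 1 for any difference and for meninges minus cheek. Counts of all genes fell to 0 in each comparison without cheek tumor 2 or 3. The difference of Pcdhga1 stayed between -2.01 and -1.31 for cheek minus retro-orbital and between -1.64 and -1.07 for meninges minus retro-orbital, and that of Pcdhgc5 between 0.55 and 1.65 for meninges minus cheek in the 13 of 17 fits where it passed the filter. On the length of the own first exon, an alternative chosen after seeing the data, the location means of the cluster sums became 12.9, 3.29 and 10.2 (alpha) and 157, 118 and 179 (gamma) in retro-orbital, cheek and meninges tumors. Leaving out each tumor in turn, the deposited location means ran from 4.51 to 7.29, 1.14 to 1.97 and 3.34 to 5.99 (alpha), from 83.1 to 107, 68.6 to 99.6 and 75.8 to 110 (beta) and from 84.3 to 87.8, 58.0 to 71.2 and 82.5 to 111 (gamma). The number of genes with a median of 1 RPKM or more was 35, and 43 and 27 at thresholds of 0.5 and 2. No paired analysis was possible because replicate numbers were given only in accession order, and a shared identifier ties only 1 pair across the compared locations. Depth limits the alpha genes and Pcdhb1 most, some of which had 0 fragments.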
